A study of Mus musculus with 56 samples.

Results

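Adrenal glands of female mice with a conditional deletion of Znrf3 (cKO) were compared with those of littermate controls at 12 weeks of age. The comparison uses 8 of the 56 samples of the series, 4 cKO and 4 control glands, chosen by their labels and the columns of the count table of female glands. The cKO animals carried SF1-Cre and a floxed Znrf3 allele on both chromosomes (Znrf3 Fx/Fx). The controls were SF1-Cre negative, and their Znrf3 alleles are not given in the labels. All animals were female C57BL/6J mice, and the design text states that each library came from an independent mouse. Glands were cleaned of fat, snap frozen whole and sequenced as poly(A) RNA with a strand-directional kit. The same table holds 4 cKO and 4 control glands at 6 weeks and again at 9 weeks, which entered the same fit and are set beside the 12-week effects at the end. The study asked what accompanies the switch of the cKO gland from overgrowth to regression.

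The ZNRF3 protein is a ubiquitin ligase in the cell membrane that marks Frizzled receptors for degradation, and its loss is known to raise Wnt signalling. The Wnt gradient is strongest under the capsule, where the zona glomerulosa makes aldosterone, and falls toward the zona fasciculata, which makes glucocorticoids. SF1-Cre acts in steroid-producing cells of the cortex, so chromaffin cells of the medulla, the capsule, vessels and immune cells of the same gland are not its direct targets. A whole gland pools all of these, and each level is a share of its library. In such bulk samples fewer cells of a type, less RNA per cell and a larger amount of other tissue cannot be told apart. Levels below are library-size-scaled counts after TMM scaling (CPM), given in the order of replicates 1 to 4. Differences are log2 fold changes of cKO over control with their standard error (SE), tested with edgeR's quasi-likelihood test and adjusted over all genes tested. A gene rose or fell where the adjusted p was under 0.05.

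Several libraries stood apart from their group. Libraries held 37482976 to 43951533 counts in cKO glands and 37699321 to 43692341 in control glands. Mitochondrial genes took 3.95% to 4.65% of counts in cKO glands and 4.38% to 5.7% in control glands (two-sided exact permutation p = 0.114, where 0.0286 is the smallest that 70 splits allow). Fewer genes had a count in cKO glands, 23442 to 23911, than in control glands, 24180 to 25222 (exact permutation p = 0.0286). The female label held in the data, since Xist was at 452 to 537 CPM in cKO glands and at 495 to 542 CPM in control glands, and the Y-linked genes Ddx3y, Uty, Kdm5d and Eif2s3y had no count in the 8 libraries.

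The library of cKO replicate 2 carried liver transcripts. Alb, which encodes albumin, was at 0.0268, 293, 0.0749 and 10.5 CPM in cKO glands, against 0.0551, 0.0467, 0.0245 and 0.0657 CPM in control glands. The fibrinogen gene Fga was at 18.2 CPM in that library and 0.278 CPM in cKO replicate 4, and had no count in the other cKO libraries or in control glands. Of 15 liver genes tested 12 were called higher, and 0 of them without cKO replicate 2. Control replicate 1 was highest of its group in 12 of 12 immediate-early genes, which are switched on within minutes by stimulation. The transcription factor gene Fos was at 1.58, 2.91, 3.35 and 1.85 CPM in cKO glands, against 132, 10.6, 5.93 and 3.15 CPM in control glands. Control replicate 4 was highest of its group in 13 of 14 genes of capsule and stroma and 15 of 17 collagen genes. The adipose gene Adipoq was at 1.39, 7.43, 0.0749 and 0.533 CPM in cKO glands, against 0, 0.397, 1.35 and 8.17 CPM in control glands, highest in cKO replicate 2 and control replicate 4. Of 8 adipose genes tested 0 were called in either direction by edgeR. Of 8 kidney genes and of 6 lymph node genes 0 passed the filter on low counts.

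**Figure D1:**
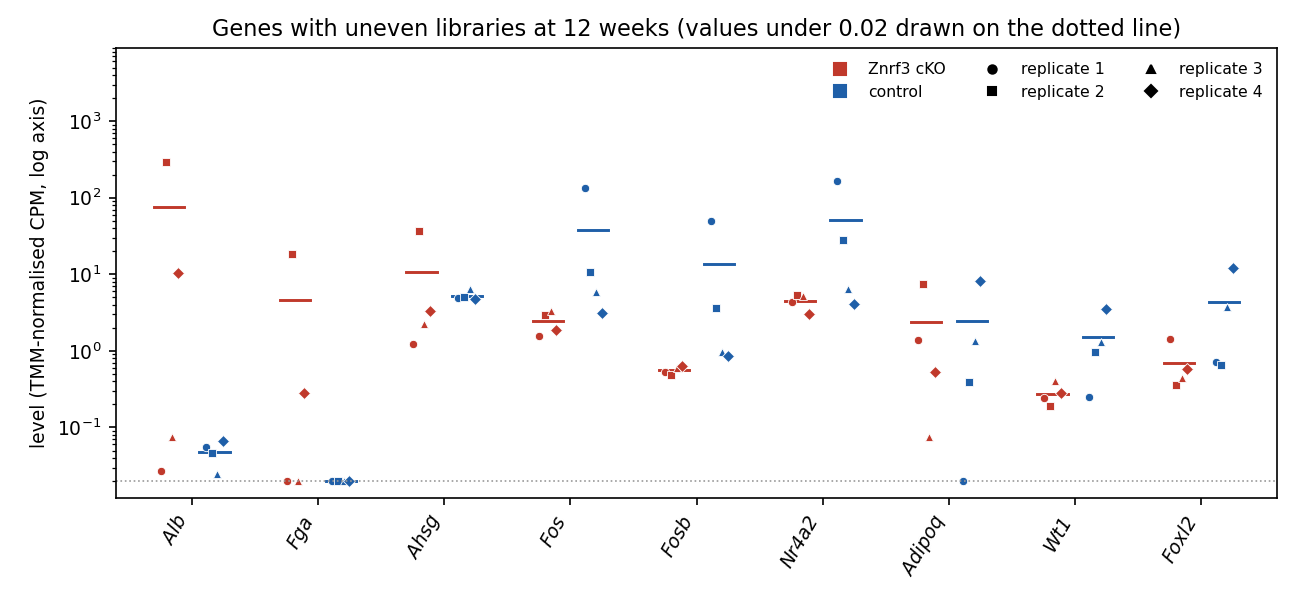
Levels in TMM-normalised CPM (log axis) of 9 genes with uneven libraries in female glands at 12 weeks, cKO left of control for each gene, with the mean as a bar. Alb, Fga and Ahsg stand high in cKO replicate 2, Fos, Fosb and Nr4a2 in control replicate 1, Adipoq in cKO replicate 2 and control replicate 4, and Wt1 and Foxl2 in control replicate 4.

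Znrf3 itself was higher in cKO glands. Its gene-level count, summed over the locus at chromosome 11, 5276324 to 5444847 (GRCm38), came to 73.1, 64.7, 85.4 and 76.6 CPM in cKO glands, against 31.2, 32.8, 36.6 and 36.7 CPM in control glands (1.13 ± 0.13 SE, adjusted p = 1.07e-06). The groups did not overlap. Such a sum does not resolve single exons and so does not check the deletion. Its paralog Rnf43 was at 6.59, 9.56, 5.52 and 3.55 CPM in cKO glands, against 13.4, 14.5, 12.7 and 8.06 CPM in control glands, a difference that did not pass the test (-0.95 ± 0.45, adjusted p = 0.132).

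Across the transcriptome 4675 of 18645 genes tested differed (25.1%). Of all genes tested, 1699 rose (9.11%) and 2976 fell (16%). A change of at least 2-fold was reached by 279 of the genes that rose (1.5% of those tested) and by 1673 of those that fell (8.97%). All 4 cKO libraries lay above all 4 controls in 2016 genes (10.8%) and below them in 2866 (15.4%). Without cKO replicate 2, 1324 of the 1699 rises (77.9%) and 2613 of the 2976 falls (87.8%) were called again. Leaving out any other library gave similar shares, 73.3% to 80.5% of the rises and 82.9% to 91.1% of the falls. Of the 375 rises not called again without cKO replicate 2, 30 had at least 10 times the level of the next cKO library in that replicate. The median log2 fold change of all genes was -0.01. Medians of gene lists below are read beside it, and counts of rises and falls beside the 9.11% and 16% of all genes.

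**Figure D2:**
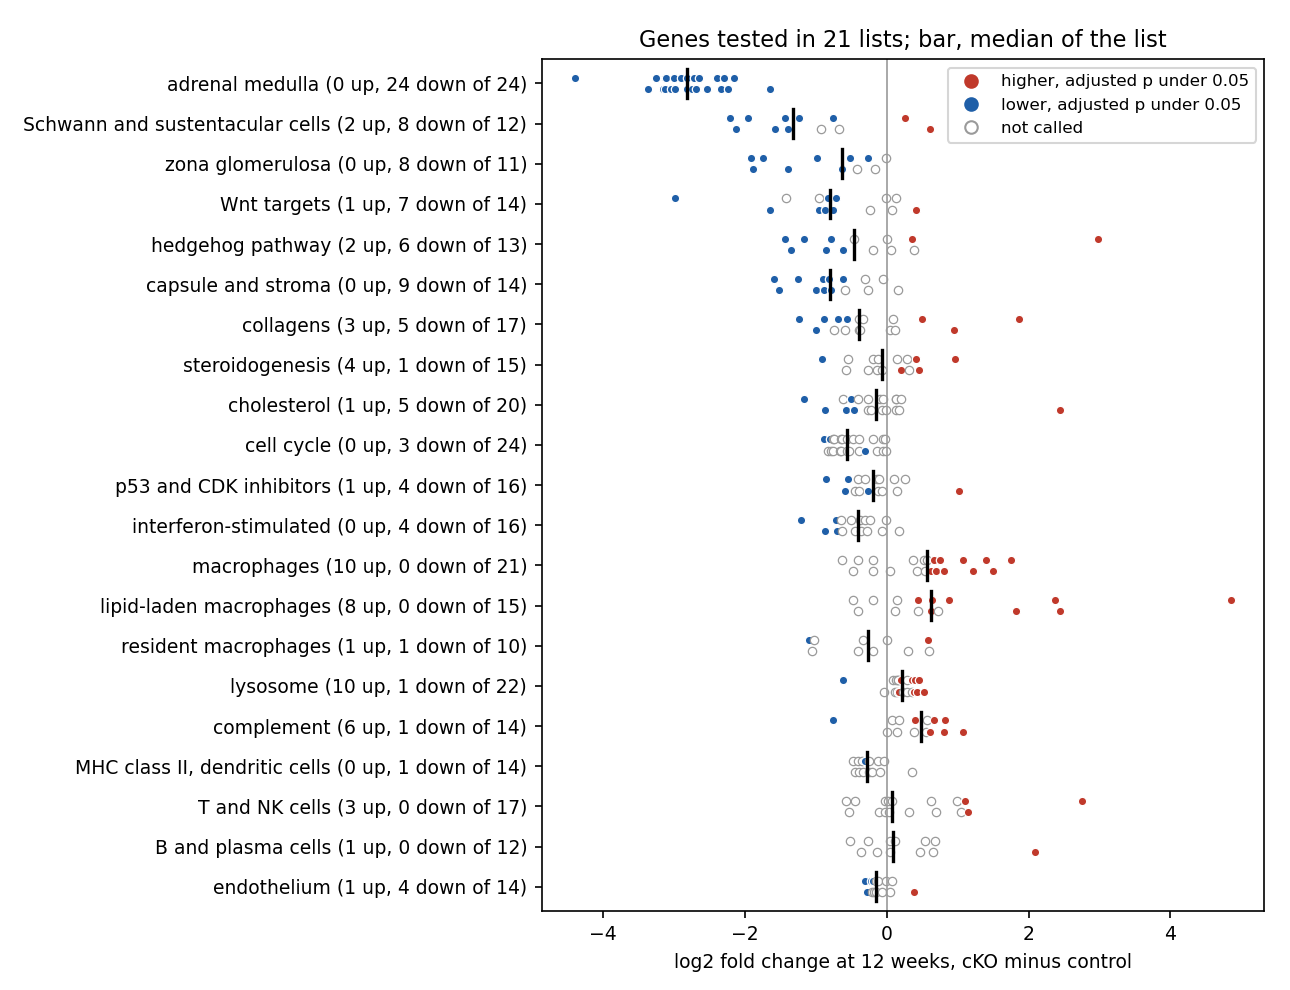
Log2 fold changes (cKO minus control, 12 weeks) of the tested members of 21 gene lists, red for genes that rose, blue for genes that fell, open for genes not called, with the list's median as a black bar. All 24 medulla genes lie left of 0, while the 10 called macrophage genes and the 8 called genes of lipid-laden macrophages lie right of it.

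Genes that report Wnt/beta-catenin signalling were lower more often than higher. Of 14 targets tested 7 fell and 1 rose, with a median of -0.80. Lgr5, a receptor for R-spondins, was at 2.28, 4.41, 4.12 and 3.13 CPM in cKO glands, against 23.6, 29.1, 27.1 and 29.8 CPM in control glands (-2.98 ± 0.25, adjusted p = 1.46e-08). Each cKO library held less than any control. The secreted or membrane feedback inhibitors Apcdd1 (-1.64 ± 0.18), Nkd1 (-0.95 ± 0.16) and Notum (-0.87 ± 0.24) fell too, as did the cyclin gene Ccnd1 (-0.83 ± 0.12), Bmp4 (-0.71 ± 0.18) and the transcription factor gene Lef1. Lef1 was at 4.66, 6.29, 7.56 and 5.05 CPM in cKO glands, against 8.89, 9.83, 10.9 and 10.3 CPM in control glands (-0.76 ± 0.21, adjusted p = 0.0101). Axin2, a scaffold of the complex that degrades beta-catenin and the most used readout of the pathway, was at 47.2, 53.6, 62.7 and 62.7 CPM in cKO glands, against 48.2, 61.1, 58.9 and 59.8 CPM in control glands. The groups overlapped (-0.01 ± 0.13, adjusted p = 0.959). Tnfrsf19, a TNF receptor family gene, was the member that rose (0.41 ± 0.10, adjusted p = 0.00325).

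Of 14 Wnt ligands, R-spondins, receptors and secreted antagonists tested, 3 fell and 0 rose (median -0.20). Without control replicate 4, 1 fell and 1 was called higher. Rspo3, an R-spondin that capsule cells send to the outer cortex, was at 11.6, 15.2, 11.6 and 6.1 CPM in cKO glands, against 22.1, 28.5, 47.1 and 45.2 CPM in control glands (-1.69 ± 0.27, adjusted p = 7.36e-05), with no overlap. The ligand gene Wnt2b (-1.14 ± 0.36) and the receptor gene Lgr6 (-0.95 ± 0.33) fell, although Wnt2b was not called without cKO replicate 4, control replicate 3 or control replicate 4, and Lgr6 was not called without cKO replicate 1, cKO replicate 2 or control replicate 4. Wnt4, the ligand that the outer cortex itself makes, was at 272, 318, 405 and 393 CPM in cKO glands, against 390.3, 406, 462 and 377 CPM in control glands (-0.24 ± 0.12, adjusted p = 0.166). The receptor genes Lgr4, Fzd1, Lrp5 and Lrp6 had differences between -0.06 and 0.14, none of them called.

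The adrenal medulla is the inner tissue whose chromaffin cells make and release catecholamines. All 24 medulla genes tested fell, with a median of -2.82, and in each of them the 4 cKO libraries lay below the 4 controls. Summed over the list, levels were 466, 1137, 783 and 625 CPM in cKO glands, against 5621, 5585, 6489 and 6379.7 CPM in control glands. The 24 falls were called in each of the 8 fits that left out a library. Within the cKO group, replicate 2 was highest in 22 of the 24 genes and replicate 1 lowest in 19.

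Catecholamine synthesis runs from tyrosine to noradrenaline and then to adrenaline, and the enzyme gene of each step fell. Th, the rate-limiting tyrosine hydroxylase, was at 24.2, 55, 33.9 and 26.3 CPM in cKO glands, against 294, 217, 309 and 289 CPM in control glands (-2.99 ± 0.29, adjusted p = 8.17e-08). Its next enzymes Ddc and Dbh differed by -2.34 ± 0.20 and -2.39 ± 0.26. Pnmt, which methylates noradrenaline to adrenaline, was at 4.44, 6.34, 6.82 and 2.55 CPM in cKO glands, against 136, 73.6, 121 and 93.7 CPM in control glands. At -4.40 ± 0.39 it had the largest fall of the 24 (adjusted p = 2.76e-08). The vesicle transporters Slc18a1 (-2.71 ± 0.26) and Slc18a2 (-2.15 ± 0.24), which load catecholamines into granules, and the noradrenaline reuptake transporter Slc6a2 (-2.29 ± 0.23) fell as well.

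Genes of granule proteins fell with the enzymes. Chgb, which encodes chromogranin B, was at 160.3, 408, 261 and 228 CPM in cKO glands, against 1941, 1996, 2365 and 2373 CPM in control glands (-3.04 ± 0.28, adjusted p = 4.76e-08). The secretogranin genes Scg2, Scg3 and Scg5 differed by -3.00, -3.11 and -2.74, and the prohormone convertase gene Pcsk1 by -3.13 ± 0.24. Its relative Pcsk2 had the smallest fall of the list (-1.64 ± 0.21). The neuropeptide gene Npy was at 11.7, 38.4, 16.9 and 11.2 CPM in cKO glands, against 127, 109, 170.3 and 145 CPM in control glands, so that even the highest cKO library stayed below the lowest control. Among transcription factors of the chromaffin lineage, Gata3 (-3.36 ± 0.25), Insm1 (-3.16 ± 0.31), Hand2 (-2.69 ± 0.25) and Phox2a (-2.64 ± 0.31) fell.

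Promoter sequences of 17 of the 24 medulla genes were at hand, each of 300 bases (250 before and 50 after the start site, RefSeq, GRCm38.p6). The cAMP response element TGACGTCA, an 8-base palindrome bound by CREB family factors, was found in 5 of them (29.4%), against 549 of 27025 promoters of all genes (2.03%). It lay in the promoters of Th, Slc18a2, Chgb, Scg2 and Pcsk1, and 4 of these are printed because they lie wholly upstream of the start site and belong to genes described above. The element is in capitals, each line reads 5′ to 3′ on the gene's strand, and the first base of the element is 45 bases upstream of the start in Th, 72 in Chgb, 68 in Scg2 and 78 in Pcsk1. The windows are chr7:142900022-142900051 (minus strand, Th), chr2:132781559-132781588 (plus, Chgb), chr1:79440076-79440105 (minus, Scg2) and chr13:75089768-75089797 (plus, Pcsk1). A match describes the letters of these windows and not binding.
Th: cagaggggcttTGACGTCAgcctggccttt
Chgb: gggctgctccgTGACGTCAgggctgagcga
Scg2: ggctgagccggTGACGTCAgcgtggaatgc
Pcsk1: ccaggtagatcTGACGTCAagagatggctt

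**Figure D3:**
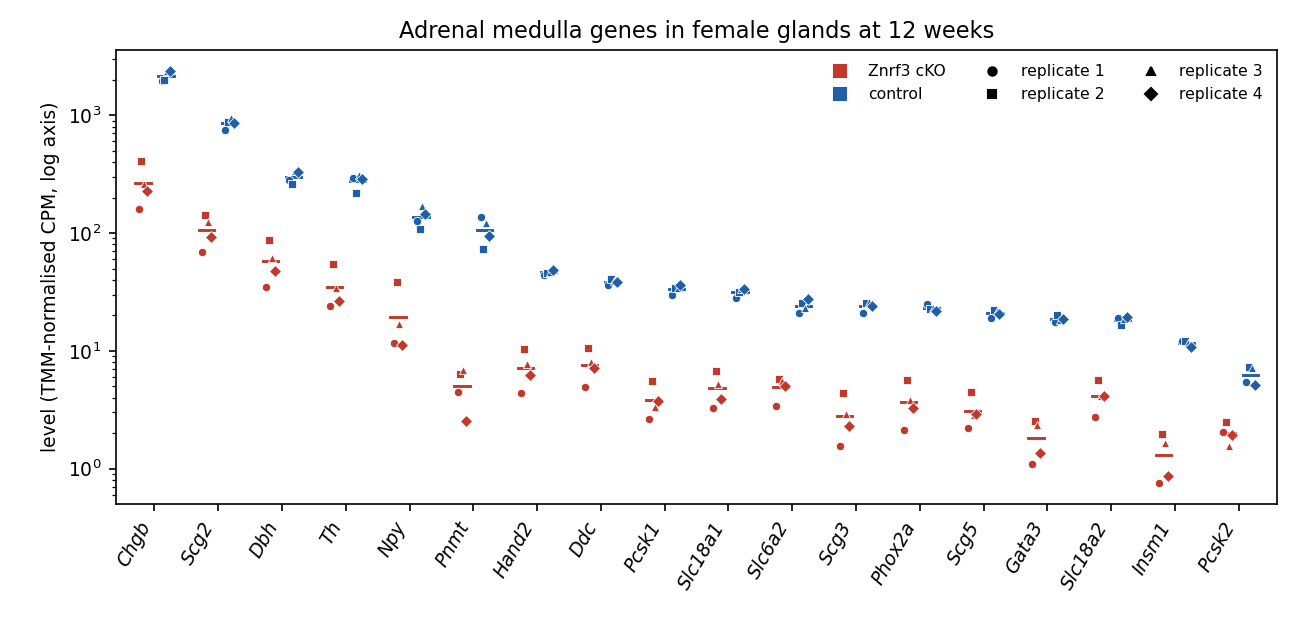
Levels of 18 medulla genes described in the text in TMM-normalised CPM (log axis), cKO left of control for each gene, with a symbol for each replicate and the mean as a bar. For each gene the 4 cKO libraries lie below the 4 controls, and cKO replicate 2 is the highest cKO library in 17 of the 18.

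Of 12 genes of Schwann and sustentacular cells, which wrap nerves and chromaffin cells, 8 fell and 2 rose (median -1.32). S100b was at 0.107, 0.572, 0.15 and 0.162 CPM in cKO glands, against 0.854, 0.841, 1.52 and 1.07 CPM in control glands (-2.12 ± 0.39, adjusted p = 0.00032), with no overlap at these low levels. Gpr37l1 (-2.21 ± 0.34), Foxd3 (-1.96 ± 0.32), Cdh19 (-1.57 ± 0.25) and Erbb3 (-1.24 ± 0.26) fell too. The genes that rose, Mbp (0.61 ± 0.18) and Pmp22 (0.26 ± 0.08), encode myelin proteins. Pmp22 took most of the list's counts, at 161, 176, 180.4 and 173 CPM in cKO glands, against 154, 146, 134 and 143 CPM in control glands. The summed level of the list was higher, at 201, 212, 222 and 228 CPM in cKO glands, against 192, 193, 179 and 195 CPM in control glands, with no overlap, while most of its members fell. Mbp was not called without cKO replicate 4 or control replicate 1, nor Pmp22 without cKO replicate 3 or control replicate 3.

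Of 11 zona glomerulosa genes tested 8 fell and 0 rose (median -0.63), and in these 8 the groups did not overlap. The aldosterone synthase gene Cyp11b2 was at 89.5, 96.1, 83.2 and 97.7 CPM in cKO glands, against 289.7, 429, 426 and 237 CPM in control glands (-1.91 ± 0.36, adjusted p = 0.000376). The cKO libraries varied by less than the controls. The angiotensin receptor gene Agtr1b was at 4.04, 5.94, 3.74 and 5.61 CPM in cKO glands, against 16.2, 20.1, 19.3 and 16.2 CPM in control glands (-1.89 ± 0.20), and the potassium channel gene Kcnk9 fell alike (-1.75 ± 0.18). Rgs4 (-1.39 ± 0.13), which dampens G-protein signals, Shh (-0.98 ± 0.23), the hedgehog ligand of cortical progenitors, and Dab2 (-0.52 ± 0.10) fell too. The related channel gene Kcnk3 was at 2726, 2324, 2572 and 2606 CPM in cKO glands, against 3061, 2444, 2880.3 and 1948 CPM in control glands (-0.01 ± 0.11, adjusted p = 0.943), so the zone's genes did not move as a block.

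Shh signals outward to capsule cells, which answer through Gli1. Of 13 hedgehog pathway genes 6 fell and 2 rose (median -0.46), but 3 fell without cKO replicate 2 and likewise 3 without control replicate 4. The rises were 1, that of Scube1, without any one of cKO replicates 1 to 3 or control replicates 1, 3 and 4, and with the replicate block. The readout gene Gli1 was at 3.99, 6.29, 4.22 and 1.88 CPM in cKO glands, against 6.83, 8.5, 12.5 and 16.6 CPM in control glands (-1.44 ± 0.30, adjusted p = 0.00108). The inhibitor gene Hhip was lower by a similar amount (-1.35 ± 0.27), and Gli3 fell by 0.62 on the log2 scale. The opposite was seen for Scube1, a secreted protein of the family that helps release hedgehog ligands. It was at 144, 92.7, 149 and 212 CPM in cKO glands, against 16, 18.3, 20.9 and 20.2 CPM in control glands (2.98 ± 0.29, adjusted p = 8.46e-08).

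Genes of the capsule and stroma fell in 9 of 14 members with 0 rises (median -0.80). With control replicate 4 left out 4 fell, with cKO replicate 4 left out 6, with cKO replicate 2 left out 10, and in a fit of the 12-week libraries alone 4. Control replicate 4 was also the highest control for 13 of the 14 genes; its part in the result was not tested beyond leaving it out. Postn, a matrix protein gene, was at 22.5, 39.2, 26.5 and 19.5 CPM in cKO glands, against 55.9, 76.3, 85.1 and 106 CPM in control glands (-1.59 ± 0.21, adjusted p = 4.82e-06). Nr2f2, a transcription factor gene of stromal cells, was at 81.9, 80.9, 70 and 71.9 CPM in cKO glands, against 119, 104, 118 and 122 CPM in control glands (-0.61 ± 0.08, adjusted p = 9.76e-06). These were the 2 members in which the groups did not overlap. The fibrillar collagen gene Col1a1 was instead at 44.7, 97.4, 60.7 and 67.6 CPM in cKO glands, against 73.3, 96, 123 and 204 CPM in control glands, with overlap (-0.88 ± 0.29), and it was not called without control replicate 4, nor without cKO replicate 1, 3 or 4.

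Collagen genes moved in both directions. Of 17 collagen genes 5 fell and 3 rose (median -0.39), with 3 falls without control replicate 4 and 8 without control replicate 1. The basement membrane chain genes Col4a6 and Col4a5 rose. Col4a6 was at 20.7, 15.8, 21.6 and 15.2 CPM in cKO glands, against 2.56, 3.76, 4.19 and 9.57 CPM in control glands (1.86 ± 0.31, adjusted p = 9.18e-05), and Col4a5 differed by 0.95 ± 0.16. Their relatives Col4a1 and Col4a2, the common chains of basement membranes, differed by 0.04 ± 0.09 and 0.12 ± 0.09 and were not called. Col15a1 (-0.69 ± 0.14), Col12a1 (-1.23 ± 0.30) and Col18a1 (-0.56 ± 0.14) fell.

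Of 15 steroidogenic genes tested 4 rose and 1 fell (median -0.07), beside 9.11% and 16% of all genes. Star, which carries cholesterol into mitochondria, was at 9994, 8614, 10172 and 10075 CPM in cKO glands, against 14647, 9672, 11014 and 7063 CPM in control glands, where the controls ran both above and below the cKO libraries (-0.13 ± 0.20, adjusted p = 0.698). Cyp11b1, the last enzyme of corticosterone synthesis, was at 11376, 10152, 11541 and 9849 CPM in cKO glands, against 10693, 7377, 10036 and 7053 CPM in control glands (0.29 ± 0.13, adjusted p = 0.113), and it was called higher without control replicate 1. Nr5a1, which encodes the steroidogenic factor SF1 and whose promoter drives the Cre, rose. It was at 1899, 1788, 1724 and 2004 CPM in cKO glands, against 1152, 904, 1003 and 735 CPM in control glands (0.97 ± 0.15, adjusted p = 4.25e-05). Hsd3b1 (0.41 ± 0.11), Nr0b1 (0.45 ± 0.13), which encodes the SF1 partner DAX1, and Soat1 (0.20 ± 0.06), which esterifies cholesterol, rose, Soat1 not without control replicate 4. The fall of Akr1b7 (-0.91 ± 0.31) was not called without cKO replicate 2, cKO replicate 4, control replicate 1 or control replicate 3.

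The X-zone, an inner layer of the cortex in young female mice, was represented by 2 genes, and both fell. Akr1c18, a progesterone-metabolising enzyme gene, was at 133, 134, 29.4 and 10.3 CPM in cKO glands, against 804, 2025, 546 and 2672 CPM in control glands (-4.30 ± 0.78, adjusted p = 0.000247). Both groups were uneven, yet they did not overlap. Pik3c2g was at 5.54, 14.5, 8.29 and 6.19 CPM in cKO glands, against 69.7, 79.9, 35 and 76.4 CPM in control glands (-2.92 ± 0.49, adjusted p = 0.000113). Akr1c genes are near-identical paralogs, and how the counting split reads between them is not stated.

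Of 10 gonad-type genes tested 6 fell and 0 rose (median -1.50), with 3 calls without control replicate 4 and 8 without control replicate 1. Inha, which encodes the inhibin alpha chain, was at 25.7, 21.8, 19.1 and 23.5 CPM in cKO glands, against 40.4, 37.3, 35.7 and 31.4 CPM in control glands (-0.68 ± 0.16, adjusted p = 0.00314), and its partner chain gene Inhba fell too (-1.47 ± 0.33). These groups did not overlap. Wt1 was at 0.241, 0.191, 0.399 and 0.278 CPM in cKO glands, against 0.248, 0.957, 1.3 and 3.53 CPM in control glands, and its call ended without control replicate 4. Foxl2, a transcription factor gene of ovarian cells, was at 1.42, 0.354, 0.449 and 0.58 CPM in cKO glands, against 0.716, 0.654, 3.77 and 12.2 CPM in control glands (-2.63 ± 1.05, adjusted p = 0.0719).

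Of 20 genes of cholesterol synthesis and uptake tested 5 fell and 1 rose (median -0.15), where 25.1% of all genes were called. Without cKO replicate 4 or control replicate 2, 3 fell, and the rise was lost without cKO replicate 2 or any of control replicates 1 to 3. Fdps, an enzyme of the isoprenoid branch, was at 68.4, 59.3, 47.3 and 40.7 CPM in cKO glands, against 106, 142, 70.5 and 167 CPM in control glands (-1.17 ± 0.23, adjusted p = 0.000579). Sqle (-0.87 ± 0.27) and Nsdhl (-0.57 ± 0.14) were lower too, although Sqle was not called without cKO replicate 4, control replicate 2 or control replicate 4.

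Proliferation genes were lower in direction. Of 24 cell cycle and DNA replication genes 3 fell and 0 rose (median -0.56), where 16% of all genes fell and 9.11% rose. The count was 11 without cKO replicate 3, 0 without cKO replicate 1 or control replicate 2, and 1 without cKO replicate 2, control replicate 3 or control replicate 4. Mki67, the standard marker of cycling cells, was at 7.47, 14.8, 33.4 and 20 CPM in cKO glands, against 18.5, 34.3, 32.3 and 44.6 CPM in control glands (-0.78 ± 0.37, adjusted p = 0.139), and it was called lower without cKO replicate 3. The cKO glands were unlike each other, with replicate 1 lowest in 23 of the 24 genes and replicate 3 highest in 21. The replication gene Mcm2 (-0.31 ± 0.09), the spindle checkpoint gene Bub1b (-0.80 ± 0.28) and Rrm2 (-0.88 ± 0.32), which supplies deoxynucleotides, were the genes called, and each lost its call without cKO replicate 1.

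Senescent cells stop dividing through CDK inhibitors such as p16, encoded by Cdkn2a, and p21, encoded by Cdkn1a. Cdkn2a was at 7.23, 6.75, 8.86 and 3.99 CPM in cKO glands, against 3.61, 2.62, 3.58 and 3.46 CPM in control glands (1.02 ± 0.21, adjusted p = 0.00108). All cKO libraries lay above all controls, replicate 4 by the least. This gene-level count does not separate the transcripts of the Cdkn2a locus, so it is not a measure of p16 alone. Cdkn1a was at 21.7, 33.4, 27 and 28.7 CPM in cKO glands, against 32.1, 36.3, 36.4 and 40.5 CPM in control glands, a difference that did not pass the test (-0.39 ± 0.21, adjusted p = 0.178). Of 16 genes of p53 and CDK inhibition 1 rose and 4 fell (median -0.20). The 4 were the CDK inhibitor gene Cdkn1c, known as p57, and the p53-responsive genes Trp53inp1, Sesn2 and Zmat3, of which Zmat3 was not called without cKO replicate 1 or 3 or control replicate 1 or 3. Cdkn1c was at 287, 354, 418 and 335 CPM in cKO glands, against 928, 562, 595 and 447 CPM in control glands (-0.86 ± 0.19, adjusted p = 0.00181).

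Of 18 genes of the senescence-associated secretory phenotype tested 4 rose and 2 fell (median -0.11). The interleukin-1 genes went opposite ways. Il1a was at 0.669, 1.63, 1.15 and 1.44 CPM in cKO glands, against 0.248, 0.0934, 0.0245 and 0.263 CPM in control glands (2.94 ± 0.65, adjusted p = 0.00172). Il1b was at 0.268, 0.517, 0.424 and 0.417 CPM in cKO glands, against 1.84, 1.35, 1.91 and 1.66 CPM in control glands (-2.05 ± 0.33, adjusted p = 6.35e-05). Neither pair of groups overlapped. The fall of Il1b was the 1 left without cKO replicate 1, cKO replicate 4 or control replicate 2, and in a fit of the 12-week libraries alone. Mmp12, a macrophage elastase gene described below, Igfbp3 (0.50 ± 0.15) and Ccl8 (2.32 ± 0.81) were the other rises, of which Igfbp3 was not called without control replicate 1 and Ccl8 lost its call in 5 of the 8 fits without a library. The interleukin gene Il6 stayed under the filter on low counts, at no more than 0.0545 CPM in cKO glands and 0.0826 CPM in control glands.

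Interferon-stimulated genes fell in 4 of 16 members with 0 rises (median -0.40), but in 10 without cKO replicate 4. That library was highest of the cKO group in 14 of the 16 genes and cKO replicate 1 lowest in 15. Isg15, a ubiquitin-like protein gene, was at 4.15, 7.6, 10.2 and 22.5 CPM in cKO glands, against 16.2, 16, 11.4 and 13.9 CPM in control glands (-0.37 ± 0.37, adjusted p = 0.514). In this gene 3 cKO libraries lay below the controls and replicate 4 above them, and it was called lower without that library. The antiviral gene Mx1 (-1.21 ± 0.28, adjusted p = 0.00307) and Rsad2 (-0.70 ± 0.17, adjusted p = 0.00349) fell. Of 14 apoptosis genes Bcl2a1b rose (1.17 ± 0.33, not called without cKO replicate 2) and Bcl2 fell (-0.57 ± 0.12), with a median of 0.07. Of 12 genes of the unfolded protein and integrated stress responses 2 rose and 3 fell (median -0.06), with 1 fall without cKO replicate 2, 3 or 4 or control replicate 2. The rise of the stress factor gene Ddit3 (0.55 ± 0.14, adjusted p = 0.00534) was the 1 left without cKO replicate 1, 3 or 4 or control replicate 1, 2 or 4.

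Macrophages clear dying cells and their debris, and their genes rose in part. Of 21 genes of macrophages and monocytes 10 rose and 0 fell (median 0.57), and between 8 and 11 rose when each library was left out. Their summed level was 1231, 1919.8, 1439.7 and 1814 CPM in cKO glands, against 741, 892, 606 and 959.6 CPM in control glands, without overlap. The lysozyme gene Lyz2 was at 361, 625, 366 and 554 CPM in cKO glands, against 129.7, 159.8, 112 and 163 CPM in control glands (1.75 ± 0.30, adjusted p = 0.00013). Cd68, a lysosomal membrane protein gene, was at 44, 96.1, 67 and 66.6 CPM in cKO glands, against 19.4, 29.6, 18.2 and 29.4 CPM in control glands (1.50 ± 0.36, adjusted p = 0.00383). Fcgr3 (1.21 ± 0.22), an antibody receptor gene, Ctss (1.40 ± 0.35), a cathepsin gene, and Mertk (0.63 ± 0.12), a receptor for dying cells, rose as well. The other 11 members, Csf1r and Adgre1 among them, were not called. Csf1r, the receptor for the growth factor of macrophages, was at 43.7, 45.2, 50.1 and 53.9 CPM in cKO glands, against 43.5, 49.7, 38.3 and 55.4 CPM in control glands (0.05 ± 0.12, adjusted p = 0.82). Adgre1, which encodes F4/80, differed by 0.37 ± 0.24 (adjusted p = 0.272). The monocyte genes Ccr2 (-0.63 ± 0.33), Ly6c2 (-0.48 ± 0.44) and Cx3cr1 (-0.41 ± 0.20) were not called.

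Larger rises were seen among genes of lipid-laden macrophages. Of 15 such genes 8 rose and 0 fell (median 0.62; 1 was called lower without cKO replicate 2). Gpnmb, a membrane glycoprotein of phagocytes filled with lipid, was at 157, 436, 173 and 243 CPM in cKO glands, against 1.76, 15.2, 4.19 and 13.2 CPM in control glands (4.86 ± 0.84, adjusted p = 0.000149). The lowest cKO library lay far above the highest control. The lipid-sensing receptor gene Trem2 was at 18.9, 41.4, 18.8 and 29 CPM in cKO glands, against 6.22, 8.66, 6.86 and 8.58 CPM in control glands (1.83 ± 0.34, adjusted p = 0.000294). The fatty acid carrier gene Fabp5 (2.44 ± 0.48), the lectin gene Lgals3 (2.37 ± 0.53) and the lysosomal lipase gene Lipa (0.64 ± 0.09) rose too. The rise of Apoe (0.88 ± 0.30) lost its call in 5 of the 8 fits without a library, and its highest control, at 1689 CPM, lay among the cKO libraries. Spp1, often raised in such cells, was at 13.9, 33.1, 21.4 and 13.6 CPM in cKO glands, against 23.6, 46.6, 22.4 and 21.6 CPM in control glands (-0.48 ± 0.43, adjusted p = 0.458). In 12 of the 15 genes cKO replicate 2, which carries liver transcripts, was the highest cKO library, and without it 7 rises were called.

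Macrophages can fuse into multinucleated giant cells. Of 6 fusion and osteoclast-type genes tested 2 rose and 1 fell (median 0.42). Atp6v0d2, a proton pump subunit gene, was at 23.5, 62.8, 31 and 37.7 CPM in cKO glands, against 0.303, 1.42, 0.245 and 2.43 CPM in control glands (5.10 ± 0.76, adjusted p = 2.51e-05), far apart. Acp5, a phosphatase gene, rose (1.17 ± 0.39) but lost its call in 6 of those 8 fits. Dcstamp, which encodes a fusion receptor, was at 0.107, 0.109, 0.025 and 0.185 CPM in cKO glands, against 1.16, 0.327, 0.343 and 0.219 CPM in control glands (-2.20 ± 0.55, adjusted p = 0.00466). Genes of resident macrophages showed 1 rise, lost without control replicate 1, and 1 fall, Lyve1 (-1.09 ± 0.40), among 10 tested (median -0.26). Lyve1 was not called without cKO replicate 1, 3 or 4 or control replicate 3 or 4. Of 12 efferocytosis genes 4 rose and 1 fell (median 0.32), with rises of the bridging molecule genes Mfge8 (0.48 ± 0.08) and Pros1 (0.47 ± 0.08). Their relative Gas6 was at 1036, 673, 654 and 500.4 CPM in cKO glands, against 507, 499, 515 and 517 CPM in control glands (0.49 ± 0.28, adjusted p = 0.215), with 3 cKO libraries above the controls and replicate 4 level with them.

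**Figure D4:**
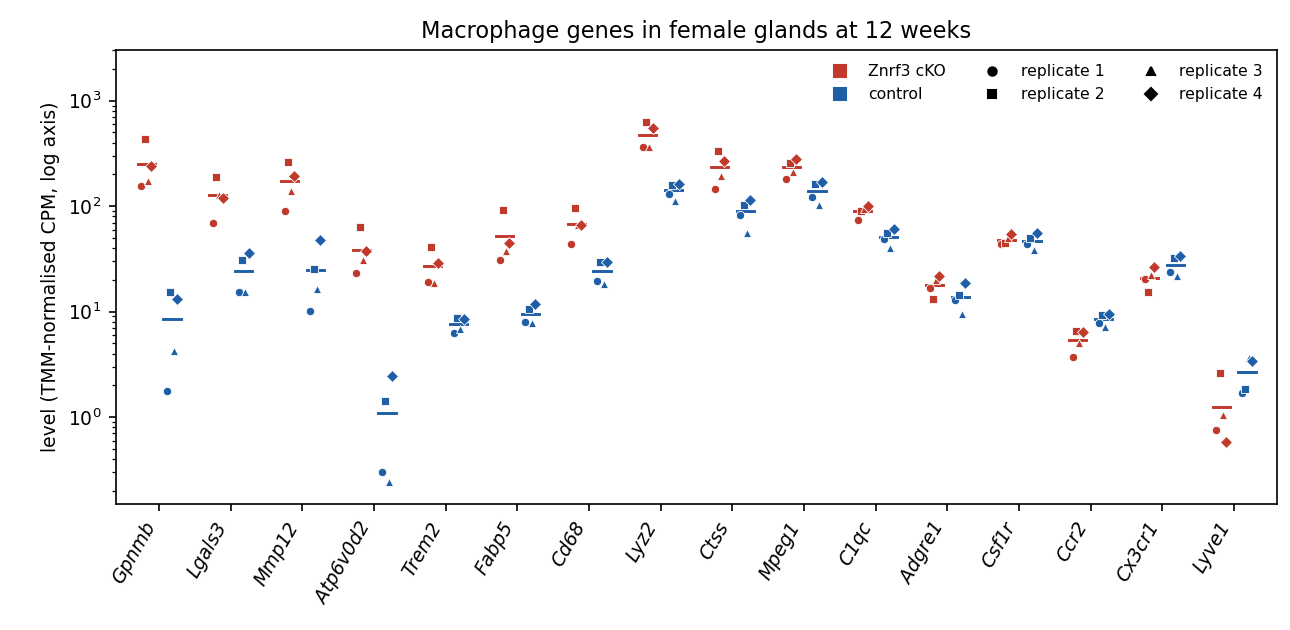
Levels of 16 macrophage genes in TMM-normalised CPM (log axis), cKO left of control for each gene, with a symbol for each replicate and the mean as a bar. Gpnmb, Lgals3, Mmp12, Atp6v0d2, Trem2, Fabp5, Cd68, Lyz2 and Ctss have all cKO libraries above all controls, whereas Csf1r, Adgre1 and Cx3cr1 overlap between the groups.

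Lysosomal genes rose by small amounts. Of 22 tested 10 rose and 1 fell (median 0.21). Ctsb, a cathepsin gene, was at 2605, 2666, 2568 and 2404 CPM in cKO glands, against 1899, 1761, 1740.3 and 1757 CPM in control glands (0.52 ± 0.10, adjusted p = 0.000616). Psap (0.40 ± 0.09), an activator of lipid-degrading enzymes, Ctsa (0.36 ± 0.07) and Lamp1 (0.20 ± 0.05) rose without overlap between groups. Tfeb, which encodes the transcription factor that drives lysosomal genes, was at 21.4, 25.8, 22.3 and 24.6 CPM in cKO glands, against 18.9, 17.4, 17.9 and 17.7 CPM in control glands (0.39 ± 0.08, adjusted p = 0.001). Ctsl was the member that fell (-0.62 ± 0.20), and it lost its call in 5 of the 8 fits without a library.

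TFEB binds E-box motifs, and the palindrome CACGTG was present in the promoters of 8 of 16 lysosomal genes with a sequence (50%), against 8.09% of all promoters of the same length. Of the lists shown in the overview of fold changes, Wnt targets (4 of 10), genes of p53 and CDK inhibition (5 of 13) and genes of MHC class II and dendritic cells (3 of 10) held it often as well. Among lysosomal genes it was present in Ctsa and Lamp1, which rose, and in Ctsl, which fell. It was absent from Psap, which rose. Windows of 3 genes are printed because they show the motif at different distances upstream of the start site, 98 bases in Ctsd, 131 in Atp6v1a and 45 in Mcoln1, with the motif in capitals. They lie at chr7:142387909-142387936 (minus strand, Ctsd), chr16:44139374-44139401 (minus, Atp6v1a) and chr8:3500463-3500490 (plus, Mcoln1) in GRCm38.p6, from RefSeq.
Ctsd: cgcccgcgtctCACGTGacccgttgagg
Atp6v1a: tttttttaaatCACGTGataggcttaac
Mcoln1: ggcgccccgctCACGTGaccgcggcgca
The cathepsin gene Ctsd rose (0.43 ± 0.14), although not without cKO replicate 2 or any of control replicates 2 to 4. The proton pump gene Atp6v1a (0.28 ± 0.11) and the lysosomal channel gene Mcoln1 (0.16 ± 0.06) each had an adjusted p of 0.0634 and were not called, although both were called higher with RLE scaling or DESeq2. The SF-1 element CAAGGTCA was found in 0 of 8 steroidogenic promoters and 1.76% of all, counted on either strand.

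Complement genes rose in 6 of 14 members and fell in 1 (median 0.48), and 3 rose without control replicate 3. The C1q chain genes C1qb (0.67 ± 0.21) and C1qc (0.81 ± 0.24), which macrophages secrete, rose, and neither was called without control replicate 3, nor C1qb without cKO replicate 3. C3ar1, the receptor for a C3 fragment, was at 19.3, 27.4, 21.4 and 23.3 CPM in cKO glands, against 10.4, 14.8, 9.01 and 17.3 CPM in control glands (0.82 ± 0.17, adjusted p = 0.000828). C4b rose (0.61 ± 0.11). C3 itself was at 3914, 1991, 5581 and 4542 CPM in cKO glands, against 3336, 3650.4, 3062 and 2179 CPM in control glands (0.39 ± 0.44, adjusted p = 0.559), with cKO replicate 2 lowest of all 8.

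Other immune cells left smaller traces. Of 14 genes of MHC class II and dendritic cells 1 fell and 0 rose (median -0.28). The class II gene H2-Aa was at 51.9, 60.3, 94.3 and 107 CPM in cKO glands, against 90.8, 103, 71.3 and 146 CPM in control glands (-0.39 ± 0.26, adjusted p = 0.286). Of 17 T and NK cell genes 3 rose and 0 fell (median 0.08). Il7r, a cytokine receptor gene of lymphocytes that some myeloid cells also express, was at 6.13, 12.9, 10.5 and 11.1 CPM in cKO glands, against 1.1, 1.28, 1.18 and 2.43 CPM in control glands (2.75 ± 0.46, adjusted p = 0.000103). The T cell genes Cd3e (0.63 ± 0.46, adjusted p = 0.348) and Cd8a (1.05 ± 0.53, adjusted p = 0.161) were not called. Cd4 (1.10 ± 0.40) and Cd3g (1.14 ± 0.39) rose in the fit with all libraries, and each lost its call in 6 of the 8 fits without a library.

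Of 12 B and plasma cell genes 1 rose and 0 fell (median 0.09), with 3 rises without control replicate 4. That gene, Cd22, was at 3.88, 7.02, 5.17 and 7.02 CPM in cKO glands, against 0.936, 1.77, 1.22 and 1.47 CPM in control glands (2.09 ± 0.34, adjusted p = 6.64e-05). Of 7 neutrophil genes Mmp8 rose (2.77 ± 0.78), at no more than 1.06 CPM in any library, and 4 rose without control replicate 2. Among 7 mast cell genes Kit rose and Hdc fell. Kit, a growth factor receptor gene, was at 23.1, 14.9, 22.2 and 30.9 CPM in cKO glands, against 6.28, 3.81, 5.78 and 6.94 CPM in control glands (2.00 ± 0.23, adjusted p = 6.68e-07). The mast cell protease gene Cpa3 was not called (-1.38 ± 0.64, adjusted p = 0.124) and stood at 6.11 CPM in control replicate 1.

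Of 16 chemokine and myeloid growth factor genes 2 rose and 3 fell (median -0.14). Il34, which encodes a ligand of the Csf1 receptor, was at 23.6, 24, 16.9 and 16.2 CPM in cKO glands, against 65.6, 57.6, 62 and 57 CPM in control glands (-1.59 ± 0.18, adjusted p = 6.68e-07). The other ligand gene, Csf1, was at 35.4, 42.4, 44.5 and 46 CPM in cKO glands, against 46.1, 49.7, 39.4 and 47.5 CPM in control glands (-0.12 ± 0.13, adjusted p = 0.569). Cxcl14 fell (-1.39 ± 0.19) and Ccl6 rose (1.53 ± 0.27, adjusted p = 0.000215). The other rise was that of Ccl8, whose call is described above.

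Vessel genes differed little in size. Of 14 endothelial genes 4 fell and 1 rose (median -0.15), with 2 falls without cKO replicate 1 or control replicate 4. Cdh5, the adhesion protein of endothelial junctions, was at 75.7, 74.9, 77.1 and 84.6 CPM in cKO glands, against 82.9, 90.4, 104 and 102 CPM in control glands (-0.28 ± 0.07, adjusted p = 0.00418). Plvap, a gene of fenestrated vessels, rose without overlap (0.38 ± 0.10, adjusted p = 0.00779). Of 8 smooth muscle and pericyte genes Tagln fell (-0.71 ± 0.14) and Notch3 rose (0.50 ± 0.17). Notch3 lost its call in 6 of the 8 fits without a library, and 3 genes fell without control replicate 1. In the erythrocyte list 0 of 6 genes were called by edgeR.

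Of 11 genes of the insulin-like growth factor system 2 rose and 2 fell (median -0.31), with 5 falls without cKO replicate 2 and 1 rise without control replicate 1. Igf1 was at 19.9, 29.2, 23.8 and 22.7 CPM in cKO glands, against 8.89, 15.7, 10.8 and 16.9 CPM in control glands (0.87 ± 0.25, adjusted p = 0.0117), and Igf2 stayed at no more than 0.325 CPM in cKO glands and 1.18 CPM in control glands (-1.82 ± 0.41). Of 15 glutathione genes 5 rose and 3 fell (median 0.10), with 3 rises without cKO replicate 3. Gstm1 was at 512, 614, 637 and 691 CPM in cKO glands, against 256, 258, 306 and 359 CPM in control glands (1.06 ± 0.11, adjusted p = 1.23e-07), whereas Gsta3 was at 6.43, 9.23, 5.77 and 8.3 CPM in cKO glands, against 18, 43.6, 15.9 and 74.6 CPM in control glands (-2.36 ± 0.41, adjusted p = 0.000148). Both are glutathione transferases, and in both the groups were apart. Reads of such families may be split between near-identical members.

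Of 12 retinoid genes 7 fell and 0 rose (median -0.74). They include the retinaldehyde dehydrogenase genes Aldh1a1 (-1.54 ± 0.28), Aldh1a3 (-1.41 ± 0.29) and Aldh1a2 (-0.79 ± 0.21), which make retinoic acid, and Stra6 (-1.49 ± 0.33), which takes up retinol. Of 12 nuclear and hormone receptor genes 4 fell and 1 rose (median -0.17). The vitamin D receptor gene Vdr was at 1.82, 1.96, 2.3 and 2.57 CPM in cKO glands, against 5.04, 6.68, 7.05 and 6.52 CPM in control glands (-1.55 ± 0.17, adjusted p = 4.71e-07). The leptin receptor gene Lepr fell (-1.23 ± 0.22). Of 12 immediate-early genes 9 fell and 1 rose (median -1.82), but 0 fell without control replicate 1, 4 without cKO replicate 4, and 5 without cKO replicate 1 or 2. Atf3 was the gene that rose, at 7.58, 16, 10 and 10.7 CPM in cKO glands, against 5.4, 3.92, 2.72 and 5.36 CPM in control glands (1.35 ± 0.36, adjusted p = 0.00778). In the small lists of other tissues, the muscle gene Tnnt3 fell among 5 tested, though its call was lost in 6 of the 8 fits without a library, and Cpb1, listed for its expression in exocrine pancreas, fell with 1 other gene tested.

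Ranked among genes whose average log2 CPM reached 1, called with and without cKO replicate 2 and with groups that did not overlap, the largest rise was in Cyp7a1, known as the rate-limiting enzyme of bile acid synthesis in liver. It was at 1.55, 3.29, 1.15 and 7.84 CPM in cKO glands, against 0.0275, 0.0934, 0 and 0.153 CPM in control glands (5.54 ± 0.82, adjusted p = 2.24e-05). The ranking required groups apart and a call without cKO replicate 2, so a place in it is no check for liver transcripts. Cyp7a1 was highest in cKO replicate 4, where Alb was at 10.5 CPM. In cKO replicate 2 Cyp7a1 was at 3.29 CPM and Alb at 293 CPM. Alb was at 0.0268 and 0.0749 CPM in cKO replicates 1 and 3. In the other libraries of 6 and 9 weeks Cyp7a1 also rose, by 4.96 (adjusted p = 2.58e-05) and 6.17 (adjusted p = 2.81e-06). Alb differed by 3.03 and 2.94 at these ages and was not called (adjusted p = 0.349 and 0.216). Whether liver transcripts account for the 12-week rise of Cyp7a1 was not tested. Behind Atp6v0d2 and Gpnmb came Cd5l (4.23 ± 0.96), a secreted protein gene of macrophages, and Mgat4c, a glycosyltransferase gene. Mgat4c was at 192, 204, 317 and 253 CPM in cKO glands, against 18.4, 24, 16.7 and 17.6 CPM in control glands (3.66 ± 0.45, adjusted p = 2.31e-06). Nxph1 (3.37 ± 0.58), Scube1, the lectin receptor gene Clec4d (2.81 ± 0.58) and Mmp12 followed. Mmp12 was at 89.6, 265, 138 and 195 CPM in cKO glands, against 10.2, 25.5, 16.5 and 47.7 CPM in control glands (2.78 ± 0.60, adjusted p = 0.00149). The remaining 3 of the 12 largest were Il7r, the cadherin gene Cdh13 (2.60 ± 0.28) and Unc13c (2.58 ± 0.34).

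By the same ranking the largest fall was in Kcnip1, a regulator of neuronal potassium channels. It was at 0, 0.163, 0.0999 and 0.0232 CPM in cKO glands, against 4.13, 4.02, 4.53 and 4.55 CPM in control glands (-5.88 ± 0.47, adjusted p = 6.83e-09), near 0 in each cKO gland. Cfap54 was next by size (-5.79 ± 1.60, adjusted p = 0.00982), at 0.536, 0.381, 0.749 and 0.951 CPM in cKO glands, against 41.7, 2.48, 2.94 and 100 CPM in control glands, where replicates 1 and 4 were far above the others. Fosb and Obp2a were uneven in the same way, at 49.3 and 24.9 CPM in control replicate 1, and Fosb was not called without it. With voom quality weights neither these nor Cfap54 were called. Falls with smaller errors were those of Lhfpl3 (-4.42 ± 0.39), Rdh1 (-4.11 ± 0.35), a retinol dehydrogenase gene, Rnf112 (-3.85 ± 0.34), Spock1 (-3.69 ± 0.34) and Diras2 (-3.68 ± 0.25). Gm7298 (-5.25 ± 0.77), Pnmt and Akr1c18 complete the 12.

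The 12-week effects were set beside those at 6 and 9 weeks, which rest on other libraries of the same table. Of the 18645 genes tested, 2652 rose and 3568 fell at 6 weeks, and 2728 rose and 3722 fell at 9 weeks. These are more than the 1699 rises and 2976 falls at 12 weeks. Of the genes that rose at 12 weeks, 1185 also rose at 6 weeks (69.7% of the rises at 12 weeks and 44.7% of those at 6 weeks) and 1172 at 9 weeks (69.0% and 43.0%). Of the genes that fell, 2388 also fell at 6 weeks (80.2% and 66.9%) and 2419 at 9 weeks (81.3% and 65.0%). The number of genes called in opposite directions was 2 between 12 and 6 weeks and 1 between 12 and 9 weeks.

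The change of the effect itself was tested as an interaction. Between 12 and 6 weeks it was higher at 12 weeks in 59 genes (0.316%) and lower in 1 (0.00536%). Of these 59, 58 fell at 6 weeks and 58 at 9 weeks, and 49 fell at 12 weeks too. Their median effect was -2.55 at 6 weeks, -1.60 at 9 weeks and -1.14 at 12 weeks (the ages share no libraries). The genes were chosen by the difference between the outer ages, which itself favours a 9-week effect between them, so nothing is read from these medians. Between 12 and 9 weeks 0 genes passed in either direction (0.0%) by edgeR, with 1664 at an unadjusted p under 0.05 and 59 calls by DESeq2.

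Of the genes in the lists, Agtr1b, Kcnk9, Rgs4, Rspo3 and Cpb1 were among the 59. The log2 fold change of Agtr1b was -3.58 at 6 weeks, -2.34 at 9 weeks and -1.89 at 12 weeks, and its change between 6 and 12 weeks was 1.69 ± 0.28 (adjusted p = 0.0124). Kcnk9 changed by 1.55 ± 0.25 and Rgs4 by 0.95 ± 0.18 between the same ages. Rspo3 was at -3.61, -2.19 and -1.69 on this scale at 6, 9 and 12 weeks, a change of 1.92 ± 0.39 (adjusted p = 0.0338). For Cyp11b2 the effects were -3.43, -1.40 and -1.91, and the change did not pass the test (1.52 ± 0.50, adjusted p = 0.233), nor did that of Shh (1.37 ± 0.32, adjusted p = 0.0658). The largest changes among genes whose average log2 CPM reached 1 were in the clotting factor gene F5 (4.69 ± 0.93), Gulo (2.98 ± 0.51), which makes ascorbate, the glycine transporter gene Slc6a5 (2.81 ± 0.57; its 12-week fall was not called without cKO replicate 3 or control replicate 3), the fatty acid elongase gene Elovl7 (2.08 ± 0.35) and Cpb1 (1.97 ± 0.30). F5 was at 0.348, 2.31, 0.3 and 0.278 CPM in cKO glands at 12 weeks, against 0.798, 2.19, 2.08 and 2.32 CPM in control glands, so cKO replicate 2 set its mean there. Gulo was at 4.36, 10.2, 4.67 and 2.55 CPM in cKO glands, likewise highest in cKO replicate 2. Its 12-week effect was -1.23 with that library and -1.72 without it. Without that library 11 genes, not 59, had a higher effect at 12 than at 6 weeks, and the count ranged to 128 without cKO replicate 4, with 23 and 32 without cKO replicates 1 and 3 and 12 and 22 without control replicates 1 and 2.

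The medulla list had medians of -3.22 at 6 weeks, -2.82 at 9 weeks and -2.82 at 12 weeks, and 0 of its genes had a called change. For Pnmt the effects were -4.62, -5.02 and -4.40 at 6, 9 and 12 weeks. Macrophage genes had medians of 0.54, 0.81 and 0.57 at the same ages, again with 0 called changes, and Gpnmb was at 7.39, 4.73 and 4.86. The cell cycle list had medians of 0.24, -0.50 and -0.56, and the change of Mki67 between 6 and 12 weeks did not pass the test (-1.03 ± 0.52, adjusted p = 0.512). Named after their values were seen, Mme was the gene of the 59 called higher at 12 weeks (1.00 ± 0.20, against -0.44 at 6 weeks), and Gm42929, at very low counts, was the gene whose effect was lower at 12 weeks (change -2.96 ± 0.54).

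**Figure D5:**
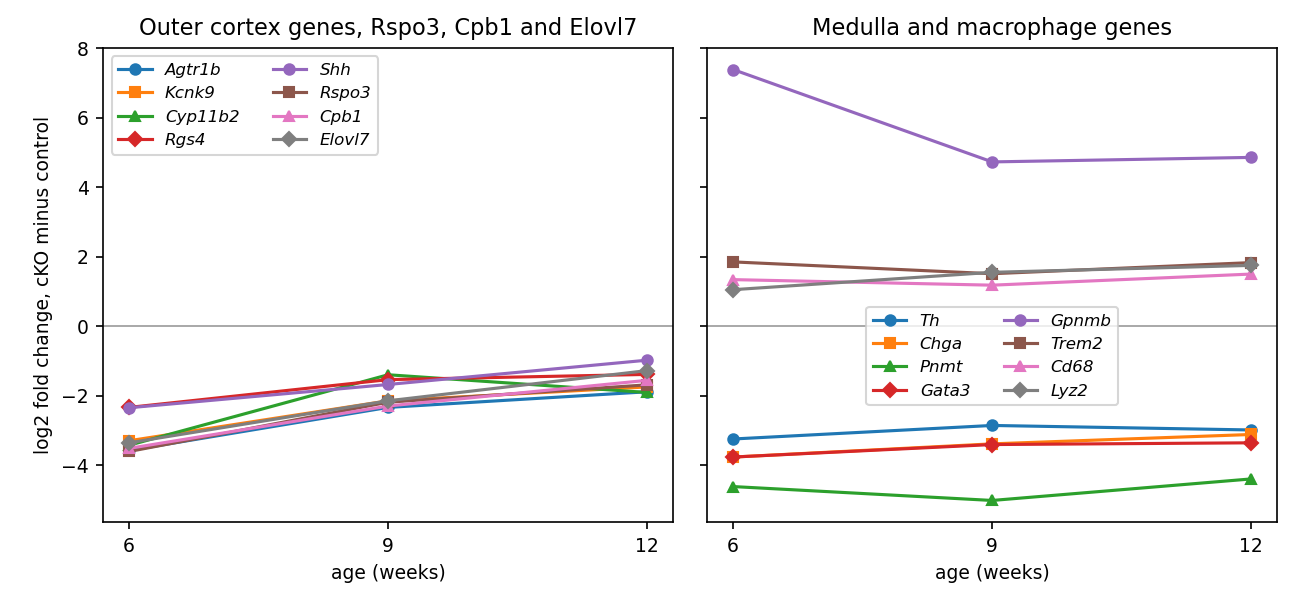
Log2 fold change of cKO over control (vertical axis) at 6, 9 and 12 weeks of age (horizontal axis) for 8 genes of the outer cortex, capsule and age-dependent set (left) and 8 genes of medulla and macrophages (right). On the left, effects lie between -3.61 and -2.34 at 6 weeks and nearer to 0 at 12 weeks, and on the right the medulla genes stay between -5.02 and -2.86 at all 3 ages. Agtr1b, Kcnk9, Rgs4, Rspo3, Cpb1 and Elovl7 belong to the genes with a called change between 6 and 12 weeks. Their shift toward 0 follows from that choice, so the panels are not compared.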

How the data were processed

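Whole adrenal glands of female mice were sequenced as poly(A) RNA. The authors deposited raw read counts per gene, whole numbers with no normalisation, in 1 table of 24 female libraries of 6 groups. STAR 2.7.6a, cutadapt 1.16, RSEM 1.6.3, featureCounts, DESeq2 1.30.1 and GRCm38 are named per the submitters' processing notes, with no role given. Samples were grouped by their labels.

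Counts of all 24 libraries were fitted together in edgeR 4.0.16 (R 4.3.3) with TMM scaling, a filter at a minimum count of 10 (18645 of 55487 genes kept) and the quasi-likelihood test, with Benjamini-Hochberg adjustment over all genes tested and a threshold of 0.05. Contrasts were cKO against control at 12 weeks, and the change of that effect against 6 and against 9 weeks. Standard errors are approximate, computed from the fold change and the F statistic. Per-library levels are TMM-normalised CPM. Symbols and positions came from the GENCODE annotation of GRCm38 (99.53% of identifiers matched). The scripts were tested on simulated data.

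The members and gene lists were chosen with earlier results of these data known, and lists are described by counts and medians, with no set test. Named genes are the 12 largest rises and 12 largest falls among genes called with and without cKO replicate 2, an average log2 CPM reaching 1 and groups that do not overlap; up to 6 members of each list by smallest p, with those needed to account for the list; a short set of anchor genes of the pathway, zones, senescence and macrophages; and up to 5 largest changes with age in each direction. Alternatives were RLE scaling, DESeq2 1.42.0, limma 3.58.1 with voom quality weights, other filters, a replicate block, the 12-week libraries alone, and each library left out. Some listed genes are not reported here by name.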

Additional observations from a re-analysis of the deposited data

Results flagged for a closer look

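A library counts as standing apart where its gap to the nearest of its group of 4, over the group's whole range, exceeds Dixon's 95% critical value; 25 of 404 groups of 4 did so, and chance gives about 1 in 20.

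Among cKO glands replicate 2 stood apart with 293 CPM of Alb, 18.2 CPM of Fga, 36.4 CPM of Ahsg, 11.2 CPM of Clec4d, 2.31 CPM of F5, 0.572 CPM of S100b and, as the lowest, 8614 CPM of Star. Replicate 4 stood apart with 4.64 CPM of Wnt2b and 3.25 CPM of Erbb3, and replicate 1 with 71.0 CPM of Col18a1.

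Among control glands replicate 1 was the highest with 132 CPM of Fos, 49.3 CPM of Fosb, 165 CPM of Nr4a2, 118 CPM of Trp53inp1, 1.16 CPM of Dcstamp, 1899 CPM of Ctsb and 6.11 CPM of Cpa3. Replicate 1 also stood apart with 40.3 CPM of Apcdd1, 48.2 CPM of Axin2 and 0.798 CPM of F5. Replicate 4 stood apart with 8.17 CPM of Adipoq and 2.43 CPM of Il7r, replicate 3 with 6.39 CPM of Ahsg, and replicate 2 with 2.62 CPM of Cdkn2a and 46.6 CPM of Spp1.

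The effect of cKO over control differed between 12 and 6 weeks, by the interaction test, in Rspo3 (change 1.92), Agtr1b (1.69), Kcnk9 (1.55), Rgs4 (0.95), Cpb1 (1.97), F5 (4.69), Gulo (2.98), Slc6a5 (2.81), Elovl7 (2.08), Mme (1.44) and Gm42929 (-2.96), all on the log2 scale.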

How the results depend on the processing

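With only genes of at least 5 CPM in 4 libraries, 1802 genes fell, 635 of them at least 2-fold, and 105 rose at least 2-fold. The share of higher calls among all calls was 36.3%, and between 32.8% and 42.5% under the alternatives. The change between 12 and 6 weeks was the least stable count. It was higher in 237 genes with DESeq2, 14 with voom and 19 with the replicate block, and in 11 to 128 when each library was left out. It was lower in 54 genes with DESeq2, 2 with voom and 0 with the replicate block, and in 0 to 15 with each library left out. Between 12 and 9 weeks DESeq2 called 43 genes higher and 16 lower, and leaving out each library gave 0 to 2 higher. The cause was not tested. The difference in mitochondrial share ranged from -0.93 to -0.49 percentage points over the fits without a library, and reached p = 0.0286 (exact permutation) without control replicate 4. Of the other values for whole-transcriptome counts and this share, 58 with a library left out and 41 under other settings stayed on their side. Same-numbered cKO and control libraries had correlations of 0.013 to 0.075, and the other pairs -0.091 to 0.063. Not every library correlated best with its own number. With 4 libraries in each group this cannot decide whether the numbers pair them, and the main fit treats them as unpaired. With the replicate block 1307 genes rose and 2674 fell. For the genes named, 107 values without a library and 40 under other settings lost a call, 9 and 16 gained one, and 1500 and 1315 stayed on their side. Among gene lists, the falls were 5 of immediate-early genes, 1 of the cell cycle and 2 of nuclear and hormone receptors with the 12-week libraries alone, and 1 of immediate-early genes, 3 of cholesterol genes and 1 of Wnt ligands with the replicate block. With only genes of at least 5 CPM in 4 libraries they were 1 of gonad-type genes and 2 of Schwann and sustentacular genes. At these depths a gene far below 1 CPM rests on few reads.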
